A study of Mus musculus with 48 samples.

Results

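The hippocampus of Aag-/- mice was compared between 6 weeks of age (6W) and an adult age labelled 6M, and 8 of the 48 libraries of the study belong to this comparison. They were chosen by their labels alone: every hippocampus library of genotype Aag KO at these ages, 4 at 6W and 4 at 6M, each from 1 male mouse. Aag, listed under its symbol Mpg, encodes alkyladenine DNA glycosylase, and the knockout animals are called KO below. The 6M mice were 4 to 6 months old, so this group spans a range of ages. The study also holds wild-type (WT) mice, the pre-frontal cortex and postnatal day 5 (P5), with 4 male mice in each of its 12 groups, and the KO hippocampus at P5 and the WT hippocampus at all 3 ages are used here as reference. No strain, allele design, housing or treatment is given in the labels used here. Messenger RNA was measured by sequencing of poly(A)-selected libraries made from dissected tissue, so fewer cells of a type and less RNA per cell cannot be told apart in any result.

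Alkyladenine DNA glycosylase removes alkylated and deaminated bases and so starts base excision repair. By 6 weeks the mouse hippocampus has passed the main waves of neuron birth and of myelination, but neither process has ended: precursors in the dentate gyrus still divide and give rise to young granule neurons, and oligodendrocyte precursors still mature, through a short-lived premyelinating stage, into cells that wrap axons. The genes of dividing cells, of young neurons and of premyelinating oligodendrocytes are therefore the classical markers of what is left of development in this tissue.

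The 8 libraries held 21951499 to 30008907 counts over genes, so that 3 counts correspond to 0.105 to 0.147 CPM, the unit in which counts are scaled to library size, and a level at or under that is not distinguished from 0. All levels below are CPM with TMM scaling, which scales each library as a whole and leaves differences in its makeup. They are not corrected for gene length, so levels are compared between libraries and not between genes. Mpg stood at 1.58, 2.03, 1.61 and 1.70 CPM in the 6W libraries (replicates 1 to 4) and at 1.02, 1.84, 2.23 and 1.47 CPM in the 6M libraries, against 4.44 to 6.49 CPM in the WT hippocampus at 6W and 5.23 to 6.21 CPM at 6M. All 8 KO libraries therefore lay below every WT library of their age, although 34.0% of the 31-base words of the Mpg gene model (GRCm38, chromosome 11, 32226505 to 32232700) also occur on the opposite strand in Nprl3. Replicate 1 at 6W stood apart from the other 6W libraries: mitochondrially encoded genes took 28.1% of its counts, against 17.7 to 19.7% in the other 3. At 6M they took 24.1% in replicate 1 and 18.4 to 19.6% in the others. Replicate 1 at 6W also had the highest summed level of astrocyte genes, 8355 CPM against 6222.5 to 7076 CPM in the other 6W libraries. The same held for microglia genes, at 761 CPM against 529 to 598 CPM. In WT, 6W replicate 1 was likewise the highest 6W library for both lists, at 9339 and 897 CPM. Choroid plexus genes marked a second difference, with a summed level of 6837 CPM in 6W replicate 2 and 2651 CPM in 6M replicate 2, against 309 to 466 CPM in the other 6 libraries. Replicate 3 at 6M lay farthest from the other 7 on the first principal component (20.7% of the variance), and it had the highest summed level of chaperone genes, 5044 CPM against 3889 to 4443 CPM, and of hippocampal field genes, 2539 CPM against 1784 to 2339 CPM.

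Of 17786 genes tested with edgeR's quasi-likelihood test, 80 were called at a Benjamini-Hochberg adjusted p under 0.05, which is 0.450% of the genes tested. At 6M 10 of them were higher (0.0562%) and 70 were lower (0.394%). The genes that fell included 9 of 29 myelin genes, 5 of 15 genes of newly formed oligodendrocytes, 6 of 27 genes of immature neurons and 4 of 25 proliferation genes, while 43 of the 70 belonged to no list. The genes that rose included Il33, an alarmin cytokine, Abca8a, a lipid transporter, and Etnppl, an astrocyte enzyme of phosphoethanolamine breakdown. In 77 of the 80 the 4 values of one age did not overlap the 4 of the other, a separation seen in 3.87% of all genes tested (1.59% with 6M higher and 2.29% with 6M lower). The overlapping genes were Cdk6, Cybrd1 and Dmrt3. The genes were called on these same values, so the separation is not separate evidence for the calls. The median change of the called genes was -0.97 on the log2 scale for those that fell and 1.38 for those that rose, and 32 of the 70 and 7 of the 10 moved by more than 1.

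**Figure D1:**
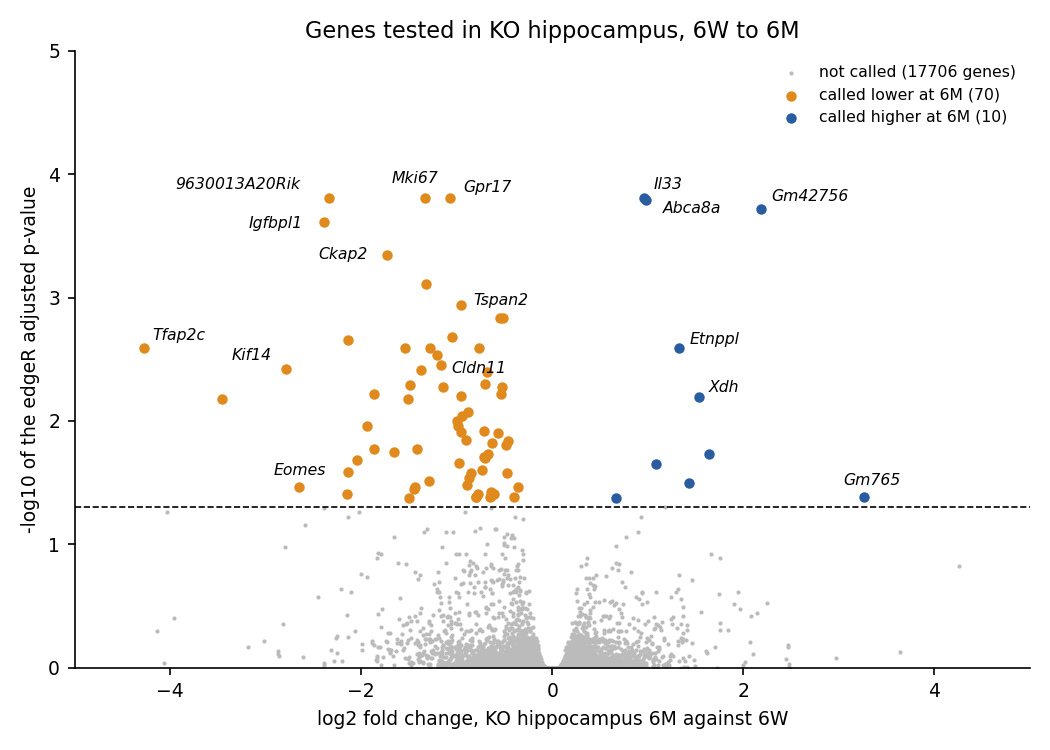
The log2 fold change of each gene tested in the KO hippocampus, 6M against 6W (x axis), is plotted against -log10 of its edgeR adjusted p-value (y axis); the dashed line marks an adjusted p of 0.05. The 70 genes called lower (orange) outnumber the 10 called higher (blue).

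In 58 of the 70 genes that fell, 6W replicate 1 was the highest of the 4 libraries at 6W. Without that library 38 genes were called, 5 higher and 33 lower, of which 37 were among the 80. The count was 48 (9 higher, 39 lower) without 6M replicate 2, 48 (4 higher, 44 lower) without 6M replicate 3 and 51 (5 higher, 46 lower) without 6W replicate 2. Without any of the other 4 libraries it was 64 to 85. When the 8 libraries were fitted alone 32 genes were called, of which 29 were among the 80. DESeq2 called 124 and the edgeR fit with no filter on low counts 339. Both libraries numbered 1 had a high mitochondrial share, and so did those of the WT hippocampus, with 31.6% at 6W and 31.4% at 6M against 15.7 to 21.1% in the other WT libraries of these ages. The part of that share in these calls was not tested. A set of 21 genes was called under every alternative run: Mki67, Ccna2, Ckap2 and Kif14, genes of cell division; Igfbpl1, a gene of young neurons; Gpr17, Enpp6 and 9630013A20Rik, of premyelinating oligodendrocytes; Cldn11, Mog, Tspan2 and Ugt8a, of myelin; Apcdd1, Map4k4, Rnf122, Serinc5 and Tfap2c, which also fell; and Il33, Abca8a, Etnppl and Gm42756, which rose. Kif14 and Tfap2c did not pass the filter on low counts when the 8 libraries were fitted alone, so that alternative gave no value for them.

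Many promoters of the division genes hold 1 or both of 2 short sequence elements, and 4 promoters are shown because their genes fell together. Each run is the 250 bases before the annotated start in RefSeq (GRCm38.p6), 5′ to 3′ on the gene's strand, and capitals mark, on either strand, TTTGAA, the core of the cell cycle homology region (its reverse complement is TTCAAA), and the CCAAT box (reverse complement ATTGG). Mki67 lies at chr7:135716380-135716629 on the minus strand, Top2a at chr11:99024190-99024439 on the minus strand, Ckap2 at chr8:22185820-22186069 on the minus strand and Aspm at chr1:139454523-139454772 on the plus strand.
Mki67: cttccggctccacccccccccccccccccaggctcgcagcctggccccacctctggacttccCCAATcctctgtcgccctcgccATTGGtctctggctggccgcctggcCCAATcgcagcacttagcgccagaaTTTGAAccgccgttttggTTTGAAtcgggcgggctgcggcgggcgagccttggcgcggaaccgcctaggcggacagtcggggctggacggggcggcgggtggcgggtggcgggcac
Top2a: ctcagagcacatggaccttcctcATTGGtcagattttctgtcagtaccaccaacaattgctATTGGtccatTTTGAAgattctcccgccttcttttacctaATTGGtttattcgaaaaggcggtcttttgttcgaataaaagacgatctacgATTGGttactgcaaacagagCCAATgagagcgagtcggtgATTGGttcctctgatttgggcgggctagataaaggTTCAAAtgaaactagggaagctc
Ckap2: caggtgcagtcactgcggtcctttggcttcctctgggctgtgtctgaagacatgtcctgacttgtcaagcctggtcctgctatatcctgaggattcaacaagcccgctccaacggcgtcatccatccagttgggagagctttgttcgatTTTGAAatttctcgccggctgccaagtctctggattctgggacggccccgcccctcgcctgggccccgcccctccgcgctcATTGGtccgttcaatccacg
Aspm: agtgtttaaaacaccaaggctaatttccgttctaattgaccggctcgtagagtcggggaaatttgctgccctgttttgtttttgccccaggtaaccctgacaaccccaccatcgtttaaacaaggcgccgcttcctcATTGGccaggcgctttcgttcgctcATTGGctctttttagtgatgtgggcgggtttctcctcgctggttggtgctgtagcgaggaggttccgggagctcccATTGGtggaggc
Top2a has 8 matches in this window, Mki67 5 and Ckap2 2, with both elements in each, and Aspm has 3 matches, all of them to CCAAT. Of 8 called genes of cell division with an entry, 7 held TTTGAA (87.5%, against 16.0% of all 32851 promoters) and 7 held CCAAT (87.5%, against 33.8%). Only 2 of these 8 genes are from the proliferation list, and the set was put together after the calls were seen. Over the 63 promoter entries of all called genes that fell, the shares were close to those of all promoters, 17.5% with TTTGAA and 33.3% with CCAAT. Both elements were chosen after the calls were seen. No match to one overlapped a match to the other in these 4 windows, and a match is a description of the sequence only.

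Among genes of dividing cells, the list held 25 tested genes, of which 4 were lower at 6M, none was higher and the median log2 change was -0.53, beside 0.0055 over all genes tested. Mki67 (chromosome 7, 135689784 to 135716361), whose protein coats mitotic chromosomes, stood at 7.98, 7.09, 6.24 and 6.84 CPM at 6W and at 3.37, 2.22, 3.09 and 2.49 CPM at 6M. Every 6M library was below every 6W library, and the change was -1.33 (SE 0.17, adjusted p = 0.000155). Top2a, the topoisomerase that untangles replicated DNA, went from 3.66, 3.45, 1.61 and 3.01 CPM to 1.15, 0.753, 1.46 and 0.587 CPM. Its lowest 6W library, replicate 3, lay only just above its highest 6M library, and the change was -1.54 (SE 0.26, adjusted p = 0.00257). Ccna2, cyclin A2, fell by 1.33 (SE 0.20, adjusted p = 0.000776), from 1.93 to 3.29 CPM at 6W to 0.978 to 1.15 CPM at 6M. Pbk, a mitotic kinase, fell by 1.42 (SE 0.29, adjusted p = 0.0170), and this call was lost without 6W replicate 1 (adjusted p = 0.111).

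A further 7 genes of mitosis outside the list were lower, of which Kif11 and Ckap2l are named after their values were seen. Kif11, Kif14 and Kif15, motor proteins of the spindle and midbody, fell by 0.96, 2.79 and 1.87. Aspm, a spindle pole protein, and Aurkb, a kinase of chromosome segregation, both fell by 2.14, and Ckap2 and Ckap2l, spindle proteins, by 1.73 and 1.28. Several of these rest on few reads: Kif14 had 20, 11, 21 and 11 counts at 6W and 3, 3, 1 and 1 at 6M. Without 6W replicate 1 the calls of Aspm (adjusted p = 0.0776) and Aurkb (0.162) were lost, and Aurkb was also lost in the fit blocked by replicate (adjusted p = 0.0511). Counts are less certain for Ccna2, with 11.8% of its words on the opposite strand in Exosc9, for Pbk, with 13.0% on the same strand, and for Ckap2, with 10.2% on the same and 3.96% on the opposite strand. Of the list's replication genes, Mcm2, Mcm3, Mcm5, Mcm6 and Mcm7, which license the replication fork, changed by 0.11, -0.10, -0.29, -0.01 and -0.42, and Pcna, its clamp, by -0.02. None of these 6 was called, and the lowest adjusted p was that of Mcm7, 0.48. In Mcm6 the 6W libraries spanned 18.4 to 21.6 CPM and the 6M libraries 18.0 to 23.5 CPM, so the groups overlapped throughout. The mitotic cyclin Ccnb1 and kinase Cdk1 changed by -1.21 (adjusted p = 0.23) and -1.08 (0.29) and were not called.

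Genes of immature neurons came next, with 6 of 27 lower, none higher and a list median of -0.22. Igfbpl1, a secreted factor of newborn neurons (chromosome 4, 45809468 to 45826923), had 6.72, 3.64, 4.06 and 4.41 CPM at 6W and 1.48, 0.419, 0.900 and 0.783 CPM at 6M. The groups were far apart, and the change was -2.39 (SE 0.33, adjusted p = 0.000242). Sox11 and Sox4, transcription factors of neuronal differentiation, fell by 0.71 (SE 0.15, adjusted p = 0.0197) and 0.67 (SE 0.14, adjusted p = 0.0185). Sox11 was 25.4, 25.6, 25.4 and 19.2 CPM at 6W, with replicate 4 below the rest, and 14.3, 12.9, 16.3 and 14.9 CPM at 6M. Of the words of the Sox4 gene model, 54.3% also occur in transcripts of the opposite strand, chiefly Gm26735, and whether the counting used strand is not given in the sources used here.

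Eomes, the transcription factor of intermediate progenitors, spread widely, with 2.92, 1.70, 0.666 and 2.82 CPM at 6W and 0.554, 0.0837, 0.386 and 0.245 CPM at 6M, a change of -2.65 (SE 0.59, adjusted p = 0.0344). Replicate 3 at 6W stood close to the highest 6M library. Draxin, an axon guidance inhibitor, fell by 1.66 and Cd24a, a surface protein of neuroblasts, by 0.80 (adjusted p = 0.0179 and 0.0415). Neurog2, a proneural factor outside the list, fell by 1.45 (adjusted p = 0.0354). Without 6W replicate 1 the calls of Sox11, Sox4, Eomes, Draxin, Cd24a and Neurog2 were all lost, with adjusted p-values of 0.0864 to 0.205, and of the 6 list genes Igfbpl1 alone was still called; without 6M replicate 2, 6M replicate 3 or 6W replicate 2 the count was 2. Dcx, the microtubule protein of migrating neuroblasts, changed by -0.47 (adjusted p = 0.54), and Prox1, the factor of granule cell identity, by -0.22 (adjusted p = 0.946).

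Newly formed oligodendrocytes were represented by 15 tested genes, all of them with a value below 0 (48.6% of all genes), and 5 were called lower. 9630013A20Rik, a long noncoding RNA of this stage annotated antisense to Pcdh17 (chromosome 14, 84458639 to 84476424), had 16.2, 10.7, 9.07 and 9.32 CPM at 6W and 1.94, 2.18, 3.30 and 1.47 CPM at 6M. It was the steepest fall on the list at -2.34 (SE 0.31, adjusted p = 0.000155). Gpr17, a receptor that times the passage out of the premyelinating stage, was 63.5, 37.5, 39.1 and 36.4 CPM at 6W and 19.6, 17.5, 25.2 and 21.9 CPM at 6M. Replicate 1 was well above the other 6W libraries, the groups did not overlap, and the change of -1.07 (SE 0.14, adjusted p = 0.000155) was -0.84 without that library (adjusted p = 0.000605). Enpp6, a choline phosphodiesterase and marker of cells starting to myelinate, went from 31.3, 18.9, 14.9 and 20.8 CPM to 9.42, 8.12, 9.09 and 10.5 CPM, a change of -1.21 (SE 0.21, adjusted p = 0.00289).

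Bmp4, a ligand expressed as precursors commit, fell by 1.51 (adjusted p = 0.00662), and Sirt2, a tubulin deacetylase, by 0.61 (adjusted p = 0.0391). Both calls were lost without 6W replicate 1, at adjusted p = 0.0540 and 0.300. Bcas1, another marker of the stage, did not pass: its 6W values were 268, 125, 114 and 132 CPM and its 6M values 130.3, 90.5, 128 and 109 CPM, with overlap outside replicate 1. Fyn, a kinase upstream of myelin protein synthesis, changed by -0.31 (adjusted p = 0.0628, or 0.0369 in the fit blocked by replicate, which called it) and Casr, the calcium-sensing receptor, by -2.03 (adjusted p = 0.055). Of 15 genes of oligodendrocyte precursors none was called, but 14 had a value below 0 (48.6% of all genes did), and the list median was -0.25. Pdgfra, the receptor that defines them, changed by -0.19 (adjusted p = 0.79). Cspg4, at 0.01, was the 1 gene of the list above 0.

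Compact myelin and mature oligodendrocyte genes numbered 29, of which 9 were lower, none was higher and 27 had a value below 0, with a median of -0.58. Their summed level was 11792, 7091, 5694 and 6822 CPM at 6W and 5072, 3918, 4908 and 4361 CPM at 6M, so the 6M libraries all lay below the lowest 6W library. Cldn11, the tight junction claudin of myelin (chromosome 3, 31149920 to 31164324), had 252, 152, 123 and 155 CPM at 6W and 80.6, 66.0, 89.7 and 68.6 CPM at 6M, a change of -1.16 (SE 0.20, adjusted p = 0.00349). Mog, a glycoprotein of the outer myelin surface, fell by 1.14 (SE 0.21, adjusted p = 0.00534). Ugt8a, which makes galactosylceramide, went from 101 to 206 CPM down to 61.3 to 75.6 CPM (-1.05, SE 0.17, adjusted p = 0.00210). Tspan2, a tetraspanin of the sheath, had 211 to 316 CPM at 6W and 120.4 to 142 CPM at 6M (-0.96, SE 0.15, adjusted p = 0.00115). Each of these 4 kept its call without 6W replicate 1, although the count of the list was then 4 of 29; it was 5 without 6M replicate 2.

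**Figure D2:**
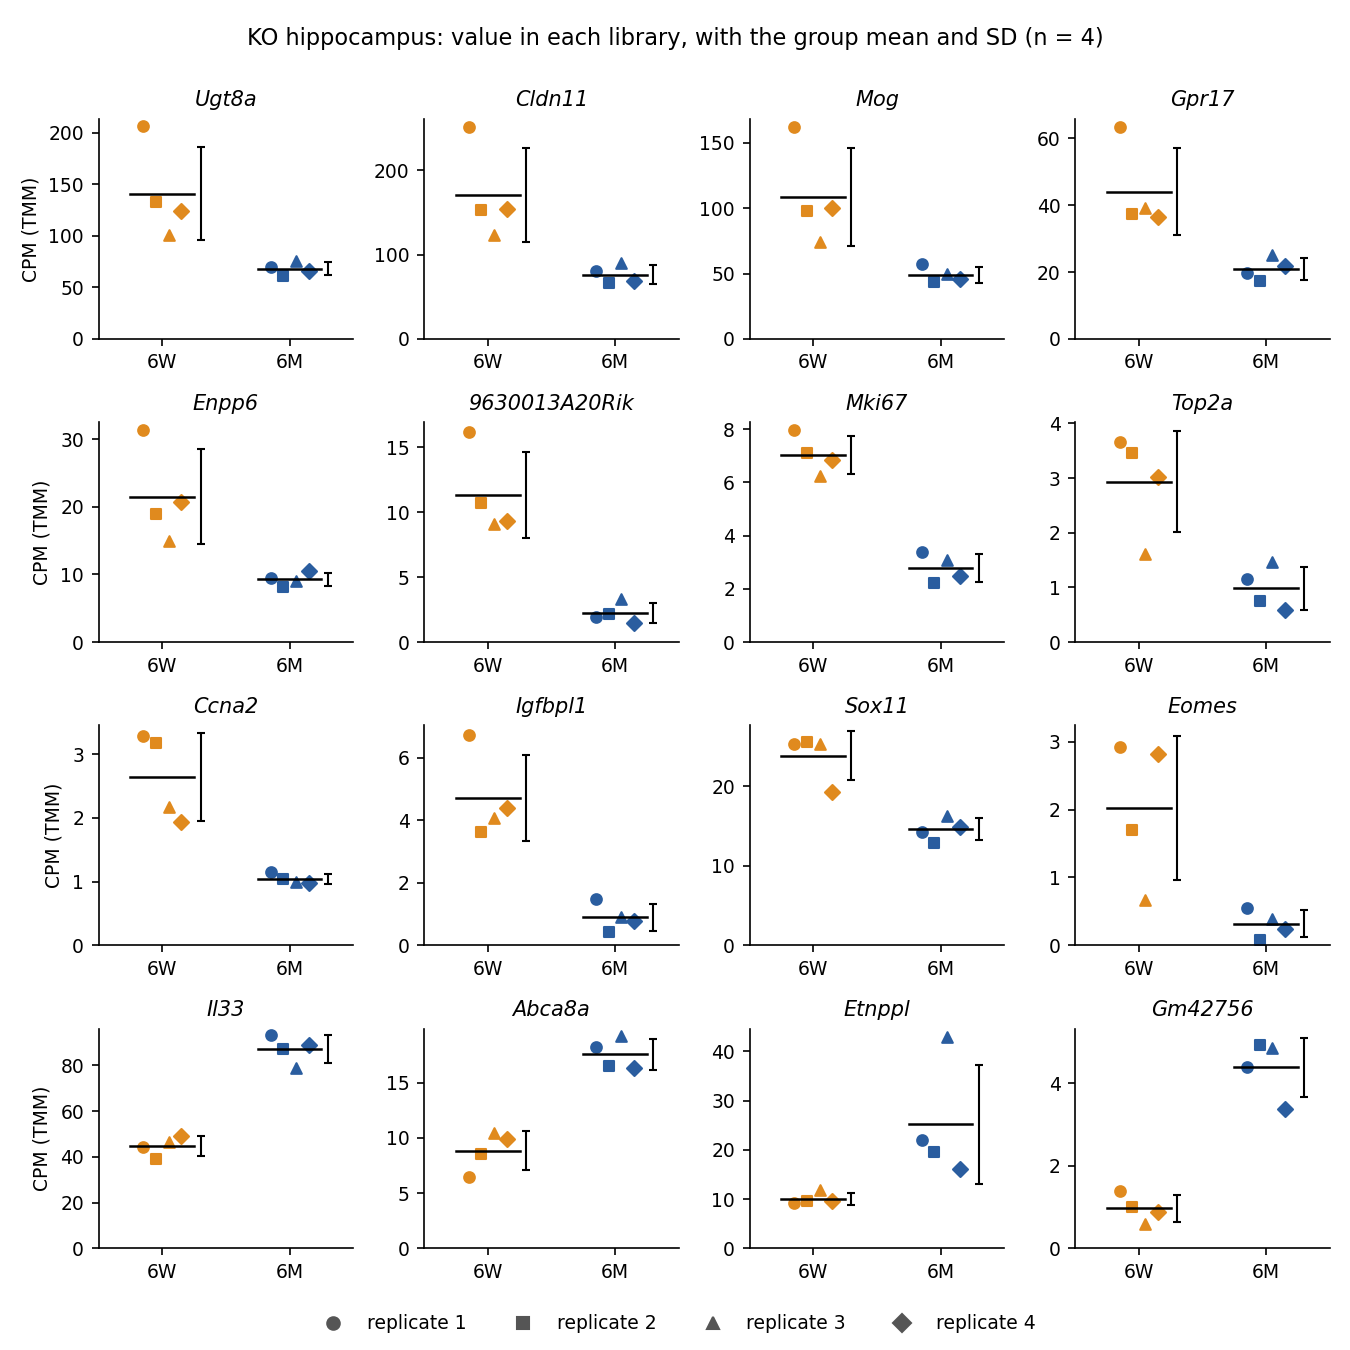
CPM of 16 called genes in each KO hippocampus library at 6W (orange) and 6M (blue), with the group mean (line) and SD (bar, n = 4); marker shape gives the replicate. In each of the 16 the values of the 2 ages do not overlap, but the genes were called on these same values. The 6W replicate 1 (circle) is the highest 6W library for Ugt8a, Cldn11, Mog, Gpr17, Enpp6 and 9630013A20Rik. It is also the highest for Mki67, Top2a, Igfbpl1 and Eomes.

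The same list held genes with less even values. Mal, Cnp and Fa2h, a lipid raft protein, a phosphodiesterase of the sheath and the fatty acid 2-hydroxylase of myelin lipids, fell by 0.94, 0.78 and 0.80. Gsn, gelsolin, fell by 0.88. Without 6W replicate 1 these 4 calls were lost, with adjusted p-values of 0.0694 to 0.337. Mbp, myelin basic protein, was not called: 6W replicate 1 was at 3378 CPM and the other 3 at 1291 to 1606 CPM, against 923 to 1299 CPM at 6M (-0.82, SE 0.25, adjusted p = 0.219). The fit blocked by replicate called 11 genes of the list, adding Mag, a glycoprotein of the sheath next to the axon (-0.76, adjusted p = 0.0737 without the block and 0.0190 with it), and Gjc3, a connexin (-0.69, 0.0997 and 0.00835). Mobp changed by -0.73 (adjusted p = 0.673), while Apod, Car2 and Trf, which oligodendrocytes express late, changed by 0.18, -0.12 and 0.00. The factor Myrf, which drives myelin gene expression, changed by -0.18.

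The letters CTGGNAC, the motif of Myrf, occurred in 4 of 14 promoter entries of the called oligodendrocyte genes (28.6%), beside 16.1% of all promoters, and ACAAAG, the SOX motif, in 2 of 14 (14.3%, beside 16.5%). Mog, a gene on the minus strand, is shown because it holds a CTGGNAC match in the 250 bases at chr17:37023399-37023648 (GRCm38.p6). The run is printed on the gene's strand, and its capitals are the reverse complement of the motif, so the motif reads on the opposite strand, the plus strand of the chromosome.
Mog: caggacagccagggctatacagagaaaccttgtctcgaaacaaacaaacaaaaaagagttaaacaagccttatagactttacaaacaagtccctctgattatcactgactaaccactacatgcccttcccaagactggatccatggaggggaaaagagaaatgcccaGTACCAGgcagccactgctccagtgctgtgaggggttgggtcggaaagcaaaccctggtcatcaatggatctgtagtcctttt

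Among the other genes that fell, members of further lists were Tnc, Serpinh1 and Cd9, and the rest of this paragraph's genes are named after their values were seen. Tnc, tenascin C, a matrix protein of germinal zones, fell by 0.99 from 8.61 to 10.7 CPM to 3.52 to 5.72 CPM (adjusted p = 0.0110), and its call was lost without 6M replicate 3 (adjusted p = 0.0772). Cxcr4, a chemokine receptor of migrating precursors, fell by 0.77 (adjusted p = 0.00257), and Apcdd1, a Wnt inhibitor, by 0.55 (adjusted p = 0.00146). Tet1, which oxidises methylated cytosine, had 24.9 to 30.7 CPM at 6W and 17.7 to 22.7 CPM at 6M, and its call was lost without 6W replicate 1 (adjusted p = 0.0512). Chst3, a chondroitin sulfotransferase, Serpinh1, the collagen chaperone, and Cd9, a tetraspanin, fell by 0.97, 0.66 and 0.64, and all 3 calls were lost without that library. Counts of Cd9 are less certain, since 10.8% of its words occur in other genes on the same strand and 15.5% on the opposite strand. Rnf122, a ubiquitin ligase, fell by 1.37 and Serinc5, a serine incorporator of membranes, by 0.51 (adjusted p = 0.00385 and 0.00146).

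Among the called genes, the 2 largest falls on the log2 scale were in genes near the limit of detection. Tfap2c, transcription factor AP-2 gamma, had 8, 5, 9 and 8 counts at 6W and 1, 0, 0 and 0 at 6M. The ratio of the summed counts, scaled for depth, was 27.4 with a 95% counting interval of 4.56 to 1119, which covers counting error only. Gja5, connexin 40 of arterial endothelium, had 10, 15, 21 and 7 counts against 1, 0, 1 and 2. Both fitted changes (-4.28 and -3.45) depend on the prior count at such levels. Of the Gja5 words, 13.9% are shared with Zfp697.

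A further 4 of the 20 largest falls without overlap belonged to no list. Rab7b, a small GTPase of endosomal traffic, had 78, 55, 47 and 41 counts at 6W and 11, 10, 17 and 9 at 6M, a change of -2.14 (SE 0.35, adjusted p = 0.00220). 4930452G13Rik, a long noncoding RNA, fell by 1.93 (adjusted p = 0.0110), and its call was lost without 6M replicate 2 (adjusted p = 0.0657). Tcfl5, a transcription factor of the basic helix-loop-helix family, fell by 1.49 (adjusted p = 0.00514), and its call was lost in the fit of the 8 libraries alone (adjusted p = 0.0921). Gm37111, a transcript model not yet experimentally verified, fell from 72 to 153 counts at 6W to 26 to 36 counts at 6M (adjusted p = 0.0421). Its call was lost without 6W replicate 1 (0.378), without 6W replicate 2 (0.0697) and without any 1 of the 6M libraries (0.0738 to 0.193), and 13.4% of its words occur in other genes on the same strand and 13.9% on the opposite strand.

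Of the 10 genes that rose, the most even was Il33 (chromosome 19, 29925114 to 29960718), the nuclear alarmin that mature oligodendrocytes and astrocytes hold. It had 44.2, 39.1, 46.6 and 49.3 CPM at 6W and 93.3, 87.2, 78.6 and 88.9 CPM at 6M. The lowest 6M library was well above the highest 6W library, and the change was 0.96 (SE 0.12, adjusted p = 0.000155). Abca8a, a transporter of the ABC family (chromosome 11, 110025634 to 110095978), went from 6.49, 8.56, 10.4 and 9.93 CPM to 18.2, 16.5, 19.3 and 16.3 CPM, a change of 0.98 (SE 0.13, adjusted p = 0.000162). Gm42756, a noncoding RNA antisense to Fbxw15 (chromosome 9, 109537100 to 109552780), had 1.39, 1.01, 0.596 and 0.889 CPM and then 4.39, 4.94, 4.85 and 3.38 CPM, a change of 2.19 (SE 0.28, adjusted p = 0.000192).

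Etnppl had 9.18, 9.53, 11.8 and 9.66 CPM at 6W and 22.1, 19.6, 42.9 and 16.1 CPM at 6M (1.33, SE 0.22, adjusted p = 0.00257). Replicate 3 at 6M was far above the other 3, which still lay above all 6W libraries. Xdh, xanthine dehydrogenase, rose by 1.53 (adjusted p = 0.00634), with counts less certain because 11.1% of its words occur in other genes on the same strand and 12.6% on the opposite strand. Alox12b, an epidermal-type lipoxygenase, rose by 1.08 (adjusted p = 0.0224). Zc3hav1, the zinc-finger antiviral protein, rose by 0.66 and Spag6, an axonemal protein, by 1.43 (adjusted p = 0.0421 and 0.0321). A230009B12Rik, a noncoding RNA, rose by 1.64. Gm765 had 2 counts in each 6W library and 9, 35, 28 and 4 at 6M, and the fit blocked by replicate did not call it (adjusted p = 0.0578). The calls of Alox12b, Zc3hav1, Spag6, A230009B12Rik and Gm765 were lost without 6W replicate 1, with adjusted p-values of 0.0776 to 0.146. No member of the 26 lists was called higher in the main edgeR fit, but some alternative fits called members higher. The fit blocked by replicate called C4b, a complement component whose counts are less certain because C4a is a near copy (0.93, adjusted p = 0.0600 without the block and 0.0199 with it).

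In the remaining lists no gene was called in the main edgeR fit except Tnc, Serpinh1 and Cd9. These were 1 each of 17 matrix, 37 collagen and 22 antigen presentation and complement genes. The member called in the last list, Cd9, is a tetraspanin and not a complement component. Some alternative fits called further members of these lists. The fit blocked by replicate added 2 calls in these lists, C4b and Plekhg1, a gene of the striatum and thalamus list (-0.52, adjusted p = 0.120 without the block and 0.0105 with it). The 18 astrocyte genes had a median of -0.13 (Slc1a2, the main glutamate transporter, -0.05, Aldoc 0.09, Gja1 -0.17), the 21 microglia genes -0.01 (Csf1r -0.03, Cx3cr1 0.03, P2ry12 -0.23) and the 29 base excision repair genes -0.04 (Apex1 0.04, Parp1 0.01, Polb 0.07). The 26 synaptic genes had a median of 0.01 (Camk2a -0.09, Grin2b -0.06) and the 20 genes of hippocampal fields -0.06, with Calb1 at 0.20 and Zbtb20 at -0.18. For the 20 circadian clock genes the median was 0.18, with 18 above 0 (51.4% of all genes were). Their summed level was 1266 to 1392 CPM at 6M and 1078 to 1231 CPM at 6W, without overlap. For the 22 antigen presentation and complement genes the median was 0.19, with 18 above 0 (B2m 0.10, C1qb 0.23). For the 24 interferon-stimulated genes it was -0.20. The 24 genes of cholesterol synthesis had a median of -0.06 (Hmgcs1 -0.28). The 17 matrix genes had a median of -0.26 and the 37 collagen genes -0.18. The summed level of the matrix genes was 1309 to 1458 CPM at 6M and 1474 to 1615 CPM at 6W, also without overlap. The lists for endothelial cells, meninges, interneurons, the striatum and thalamus, blood, immediate early genes, chaperones, protocadherins and mitochondrially encoded genes had medians between -0.35 and 0.06. All 16 choroid plexus genes had values below 0, with a median of -0.90, and 1 library of each age carried them: Ttr had 4621 CPM in 6W replicate 2 and 1769 CPM in 6M replicate 2 against 48.7 to 161 CPM elsewhere. Leaving out single libraries moved that median between -2.20 and 1.51.

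**Figure D3:**
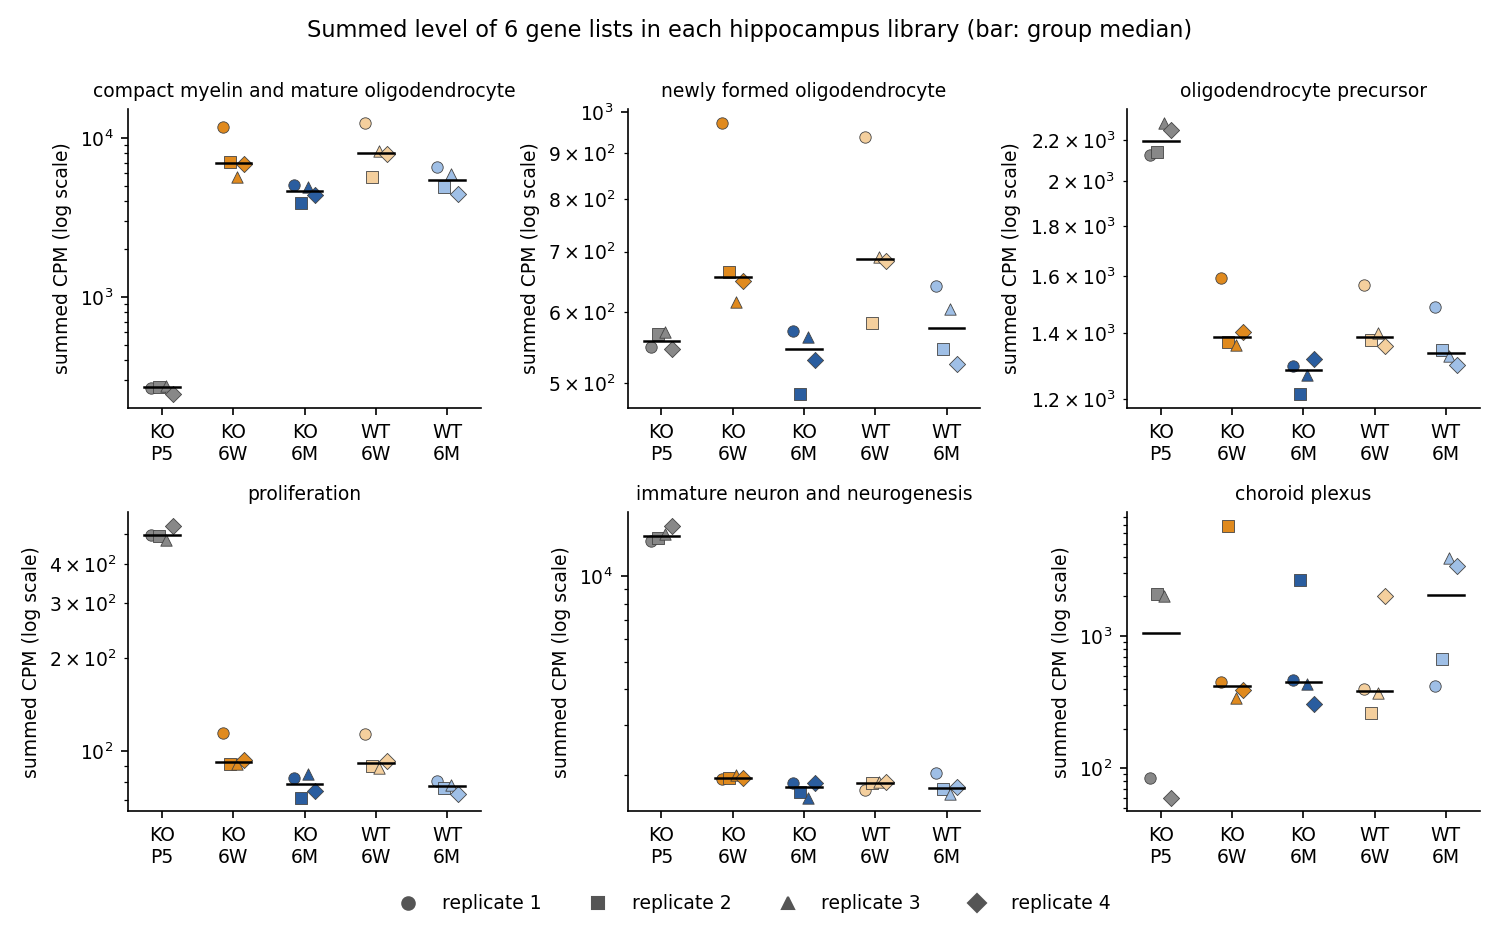
The summed CPM of 6 gene lists (y axis, log scale) is shown for each hippocampus library of KO mice at P5, 6W and 6M and of WT mice at 6W and 6M, with the group median as a bar and the replicate as the marker. In KO the 6M libraries lie below all 6W libraries for the lists of myelin, newly formed oligodendrocytes, oligodendrocyte precursors, proliferation and immature neurons, and replicate 2 alone is high for choroid plexus at KO 6W and KO 6M.

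Set beside P5, the genes that fell had moved in either direction before 6W. In the WT hippocampus, whose libraries are other than those of the comparison, 44 of the 70 had already fallen from P5 to 6W (30.6% of all genes did), 19 had risen (31.4% did) and 7 were not called. The share that had risen was thus near that of all genes. All 11 named genes of mitosis and the 6 of immature neurons had already fallen. So had all 25 genes of the proliferation list and 25 of the 27 immature neuron genes, called at 6M or not. In KO, Mki67 averaged 90.6 ± 6.47 CPM at P5, 7.04 ± 0.72 at 6W and 2.79 ± 0.53 at 6M (SD, n = 4), and Igfbpl1 89.4 ± 7.31, 4.71 ± 1.38 and 0.895 ± 0.439 CPM. All 9 called myelin genes had risen from P5 to 6W in WT, as had all 29 genes of the list. In KO, Cldn11 averaged 3.25 ± 1.10, 171 ± 56.0 and 76.2 ± 11.0 CPM at the 3 ages. Mog averaged 0.402 ± 0.215, 109 ± 37.7 and 49.1 ± 6.09 CPM, and both remained far above P5 at 6M. Gpr17 was at 25.3 ± 1.30, 44.1 ± 13.0 and 21.0 ± 3.30 CPM, and its 6M range of 17.5 to 25.2 CPM overlapped its P5 range of 23.7 to 26.6 CPM. Of the genes that rose, 8 of 10 had risen from P5 to 6W in WT, 1 had fallen (Abca8a) and 1 was not called. Il33 in KO averaged 2.58 ± 0.222, 44.8 ± 4.31 and 87.0 ± 6.14 CPM at the 3 ages.

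**Figure D4:**
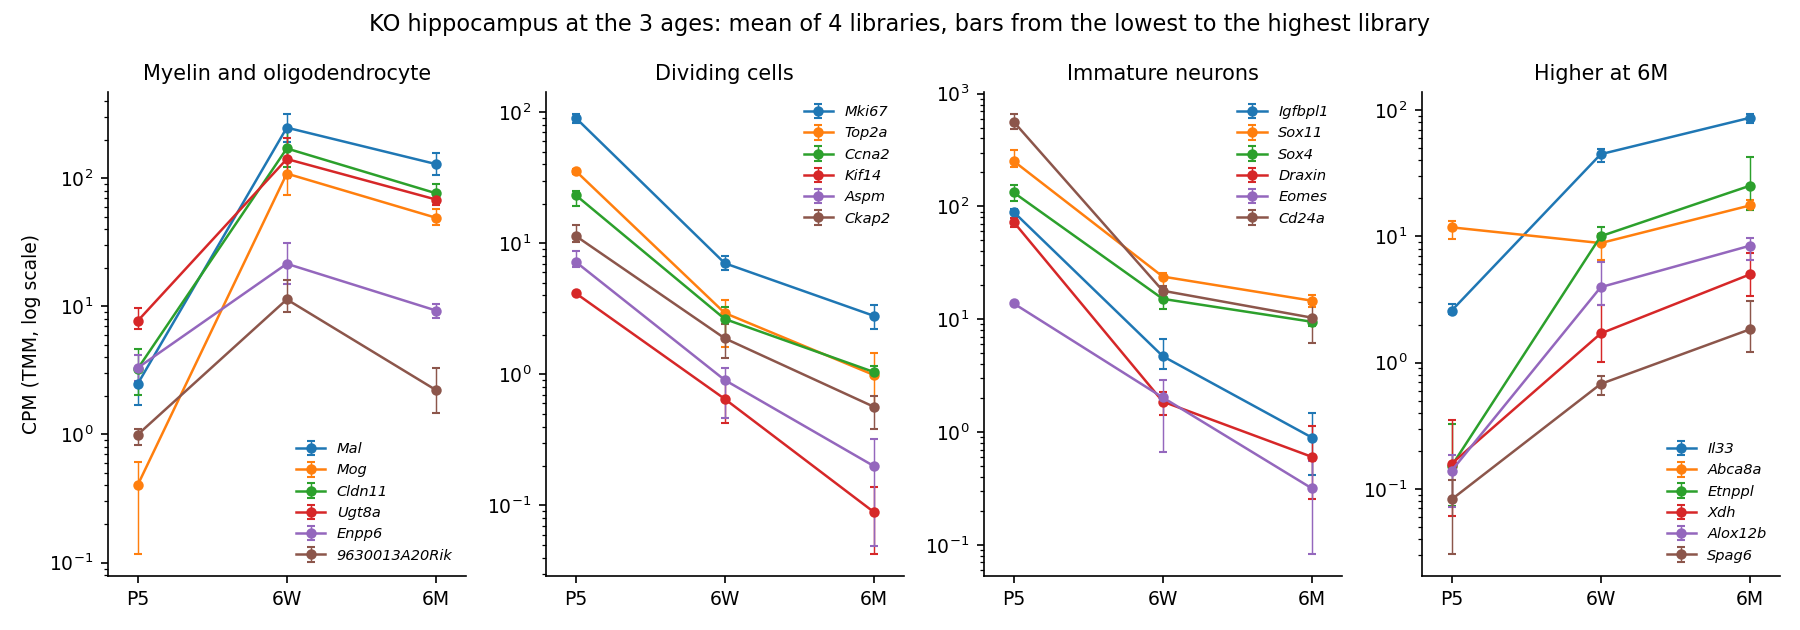
Mean CPM (log scale) of named genes in the KO hippocampus at P5, 6W and 6M, with bars from the lowest to the highest of 4 libraries. Genes of dividing cells and immature neurons fall at both steps, myelin genes rise and then fall part of the way, and the genes higher at 6M, other than Abca8a, rise at both.

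The same step was tested in the WT hippocampus, where 28 genes were called (0.157%), 5 higher (0.0281%) and 23 lower (0.129%). The WT count depended on the libraries and the fit: it was 2 (2 higher, 0 lower) from the 8 WT libraries alone and 55 with the replicate block. It was 9 without WT 6M replicate 4, 10 without WT 6W replicate 1, 16 without WT 6M replicate 2 or WT 6W replicate 3, and 50 without WT 6W replicate 2. Of the 28, 20 were also called in KO, which is 71.4% of the WT calls and 25.0% of the KO calls; the other 8 had the same sign in KO. All 10 genes higher in KO were above 0 in WT, as were 49.5% of all genes, and 68 of the 70 lower ones were below 0, as were 50.5%; the WT medians were 0.75 and -0.55. Libraries of the same number also deviated together across the genotypes at 6W, with correlations of 0.68, 0.13, 0.36 and 0.22 over 9709 genes (-0.01 to 0.38 at 6M), so the WT libraries are not fully independent of the KO libraries. Replicate 1 was the highest 6W library of both genotypes for the summed myelin list, at 12486 CPM in WT against 5674 to 8254 CPM in the other WT libraries, and the part of this shared deviation in the count of equal signs was not tested. The KO change was the larger in 70 of the 80, but the genes were chosen on the KO values. The difference between the 2 steps was then tested directly, as an interaction. No gene was called by edgeR at an adjusted p under 0.05 (0% of 17786; 839 at an unadjusted p under 0.05; DESeq2 and limma also called 0), and the lowest adjusted p was 0.556. Without 6M replicate 4 of the KO 1 gene was called, and the edgeR fit with no filter on low counts called 166.

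Among the 80 genes called in KO, the lowest p-values of that difference were those of Cd24a, Tekt2 and Etnppl, which share this adjusted p. Cd24a fell in KO from 16.6, 16.9, 19.6 and 18.4 CPM to 11.9, 9.50, 6.17 and 13.8 CPM, while in WT it was 10.6 to 17.5 CPM at 6W and 14.3 to 25.5 CPM at 6M. The difference of the changes was -1.20 (SE 0.26, unadjusted p = 7.6e-05, adjusted p = 0.556). Tekt2, a ciliary tektin at under 1 CPM, changed by -2.04 in KO and 0.51 in WT. Its counts are less certain, since 16.9% of its words occur on the opposite strand in Gm12945, and its KO call was lost without 6W replicate 1 (adjusted p = 0.120) and in the fit of the 8 libraries alone (0.212). Etnppl had 12.5 to 22.1 CPM at 6W and 13.9 to 21.8 CPM at 6M in WT, where its change was 0.01, and the difference from KO was 1.31 (SE 0.31, unadjusted p = 0.000276, adjusted p = 0.556). By contrast Mki67 changed by -1.33 in both genotypes, 9630013A20Rik by -2.34 and -1.96, Igfbpl1 by -2.39 and -2.16 and Il33 by 0.96 and 1.10, and all 4 were called in each. The immature neuron list had a WT median of -0.05 with 1 gene called lower, beside -0.22 and 6 in KO. Of its 27 genes, 5 had an unadjusted edgeR p under 0.05 for the difference, and none was called. The proliferation list had a WT median of -0.51 with 3 called lower, beside -0.53 and 4 in KO.

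**Figure D5:**
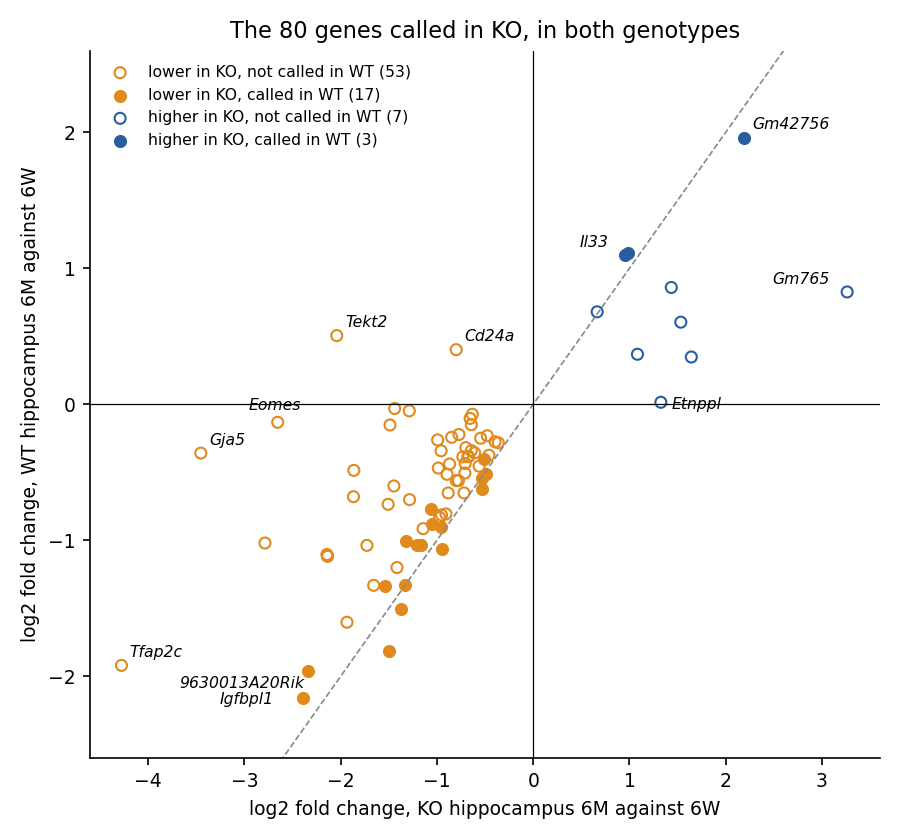
Log2 fold change from 6W to 6M of the 80 genes called in KO, in the KO hippocampus (x axis) and the WT hippocampus (y axis); filled points were also called in WT and the dashed line marks equal change. Of the 80, 78 lie in the quadrants of equal sign, and Cd24a and Tekt2 are the exceptions.

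In the KO pre-frontal cortex, the other region sampled, the same step called 17 genes of 18144 (0.0937%), 7 higher (0.0386%) and 10 lower (0.0551%). This count was unstable: it was 15 without 6W replicate 4 of that region, 2 to 8 without any other 1 of its libraries, 81 when its 8 libraries were fitted alone and 720 with limma and sample weights. Of the 70 genes lower in hippocampus 69 were tested there, 60 had values below 0 (median -0.43; 49.6% of all genes were below 0) and 2 were called lower, 9630013A20Rik (-1.83, adjusted p = 0.0139) and Aplnr, the apelin receptor (-2.18, adjusted p = 0.0248). All 10 genes higher in hippocampus were above 0 there (median 1.08; 50.4% of all genes were), and Abca8a (1.82, adjusted p = 0.00161) and Gm42756 (2.24, adjusted p = 0.00354) were called. 9630013A20Rik, Abca8a and Gm42756 were thus called in the KO and WT hippocampus and in the KO pre-frontal cortex. The 2 regions may come from the same mice, so the cortex libraries are not known to be independent of the hippocampus libraries. The test of the difference between the regions held no term for the mouse. Cldn11 changed by -0.67 in the cortex (adjusted p = 0.416), and in the edgeR fit no gene of the myelin list was called there. The difference between the regions was also tested: edgeR called none of 18849 genes (0%; 1150 at an unadjusted p under 0.05; DESeq2 called 0 and limma 3). The lowest adjusted p was 0.323, that of Ebf3, a transcription factor that fell by 1.44 in hippocampus (adjusted p = 0.0344, 0.130 without 6W replicate 1 and 0.0561 in the 8 libraries alone) and changed by 1.19 in the cortex (adjusted p = 0.299).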

How the data were processed

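RNA from hippocampus and pre-frontal cortex of male Aag-/- and WT mice was measured in 48 libraries (12 groups of 4), per the labels' protocols with a stranded poly(A) kit and 75-base single-end reads. Per the submitters' processing notes, bcl2fastq 2.20.0.422, STAR 2.4.0 and HTSeq were used with GRCm38; the annotation release and the use of strand in counting are not given in the sources used here. The authors deposited raw counts per gene, not normalized. Symbols were matched by ID for 54723 of 54838 genes; the other 115 held 0.0324% of the counts and were fitted under their IDs. Gene positions are from GENCODE M21.

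All 24 hippocampus samples were fitted together (6 groups, 18 residual degrees of freedom) with edgeR 4.0.16 in R 4.3.3: filterByExpr, TMM, glmQLFit and glmQLFTest, Benjamini-Hochberg adjustment over all genes tested, and a call at an adjusted p under 0.05. The pre-frontal samples were fitted the same way, and the difference between tissues in all 48. Standard errors are the absolute log2 change divided by the square root of F. The scripts were tested on simulated data. Total counts of the 8 libraries ranged from 21951499 to 30008907, and intervals cover counting error only. Alternatives were DESeq2 1.42.0, limma 3.58.1 with sample quality weights, other size factors and filters, a replicate block, the samples compared alone, and each library left out.

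Replicate numbers recur across ages. In the KO hippocampus the deviations of same-numbered 6W and 6M samples from their group means correlated over 9706 genes at 0.43, 0.36, 0.29 and 0.43. Each sample correlated most with its own number, so the numbers pair these samples. In the WT hippocampus the correlations were 0.36, -0.09, 0.35 and 0.18 (mean 0.20, against -0.06 for other numbers), so the numbers paired only some samples. In the KO pre-frontal cortex they ranged from -0.45 to 0.35, and the numbers did not pair the samples. Among the KO hippocampus libraries at 6W and at 6M, no pair of a group was near identity.

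The gene lists and the comparison were chosen with earlier results of these data known. Named genes are Mpg; among called genes without overlap, those with the 10 largest rises and the 20 largest falls; in each list up to 6 called and 4 uncalled genes, of which the text gives some; and genes called in all 3 comparisons. Any other gene was chosen after its values were seen. Some results are not reported here. Promoters are RefSeq entries of GRCm38.p6; 60 of the 80 called genes matched. Shared sequence was measured as 31-base words of the gene models.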

Additional observations from a re-analysis of the deposited data

Results flagged for a closer look

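Among 96 sets of 4 values from the KO hippocampus (48 genes at each age), 4 had 1 library far from the other 3, against about 4.8 expected when chance marks 1 in 20. Gpr17 had 63.5 CPM in 6W replicate 1 and 36.4 to 39.1 CPM in the other 6W libraries. Sox11 had 19.2 CPM in 6W replicate 4 and 25.4 to 25.6 CPM in the others, a low value that lies nearer to the 6M range of 12.9 to 16.3 CPM. Aplnr had 0.391 CPM in 6M replicate 4 against 0.209 to 0.231 CPM. Tfap2c had 0.0462 CPM, a single count, in 6M replicate 1 and 0 in the other 3. The causes were not tested.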

How the results depend on the processing

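The 80 calls of the KO hippocampus step became 339 with no filter on low counts, 124 with DESeq2 and 32 when the 8 libraries were fitted alone; limma, median-of-ratios scaling, a filter at a mean count of 10 and leaving out mitochondrially encoded genes gave 79 to 84, although the 79 of limma held only 62 of the 80. Under the replicate block there were 89 calls (11 higher, 78 lower), which included all of the 80 but Aurkb and Gm765 (78 kept). Chosen after seeing the data, leaving out the samples numbered 1 from all groups gave 49 calls (9 higher, 40 lower), or 44 with the replicate block as well. Leaving out 1 library gave 38 to 85. Of the 80 genes none changed sign in any alternative, 21 were called in every one, 16 were lost in 1 to 3 and 43 in more. The WT hippocampus step gave 28 calls, and 341 with no filter, 90 with DESeq2, 58 with limma, 55 with the replicate block, 2 from its 8 libraries alone, 16 without the samples numbered 1 and with the block, and 9 to 50 with 1 library left out. The KO pre-frontal step gave 17, and 61, 120 and 720 with no filter, DESeq2 and limma, 81 from its 8 libraries alone, 42 without the samples numbered 1 (33 with the block as well) and 2 to 15 with 1 library left out. The difference between genotypes gave 0 calls, 166 with no filter and 0 to 1 with 1 library left out. The difference between regions gave 0, and 2 with no filter, 3 with limma, 1 from the samples compared alone, 2 without the samples numbered 1 and 0 with 1 library left out. The fit without a filter tests 34362 hippocampus genes, many with few counts; otherwise the cause was not tested. With 4 samples a group, an exact permutation test of 1 gene cannot go below 0.0286 and was not used for calls. Levels under 0.105 to 0.147 CPM, 3 counts in a library, could not be told from 0.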
